A study of Mus musculus with 108 samples.

Results

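The data described here are the cerebral cortex (CX) libraries of mice at postnatal day 7 (P7), 6 from wild type (WT) mice and 6 from Cul3+/- mice. They were chosen by the genotype, region and period in their titles, and they are 12 of the 108 libraries of the series. The series asks how loss of 1 copy of Cul3, a gene in which damaging mutations have been found in autism, alters the transcriptome of the developing mouse brain, and it also holds hippocampus (HIP), cerebellum (CB) and 2 other periods. Total RNA was depleted of ribosomal RNA and sequenced with strand information. Each library came from 1 mouse. The same 12 mice also gave a HIP and a CB library.

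All mice, WT and mutant, had the strain background that the labels write as C56Bl/6N. The Cul3+/- mice carried 1 intact copy of Cul3 and 1 copy with a 1 bp insertion in exon 6, made with CRISPR-Cas9. They descended from 1 founder that was bred to WT C57BL/6N mice, so the line represents a single edited allele. The insertion is in the germline, so all cell types of the cortex carried it, and no transgene or Cre driver was involved. The sex of the mice is not in the labels.

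CUL3 is the scaffold of a family of ubiquitin ligases. Its N-terminal part binds adaptor proteins with a BTB domain, which choose the substrate, and its C-terminal part holds the RING protein that brings the ubiquitin-conjugating enzyme. Known pairs are KEAP1, which sends the antioxidant transcription factor NRF2 for degradation, and the BACURD adaptors KCTD13 and TNFAIP1, which do so for the small GTPase RHOA, a regulator of actin. In the mouse cortex the first postnatal week is a time in which neurons have mostly been born and are forming synapses, microglia clear debris and shape myelinating cells, astrocytes multiply and blood vessels branch.

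The guide used to edit the gene is shown because it fixes where the mutation lies. It is read 5′ to 3′ along the coding strand, with the PAM that Cas9 needs in capitals.

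Cul3 guide site: ggattaatgaggaaatagagCGG

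The site is found once in the Cul3-201 transcript, at chr1:80287041-80287063 on the minus strand of GRCm38, inside exon 6 of 16 (chr1:80286899-80287127), in the coding sequence. It spans codons 240 to 247 of the 768 codons before the stop, and the place where Cas9 is known to cut, 3 bases before the PAM, falls in codon 246. The inserted base itself cannot be read from a table of counts per gene and is not shown.

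The deposited values are expected counts per gene, in which a read matching several transcripts is shared among them. Totals ran from 28714481 to 39881798 counts per library over the 12 libraries. They are given below as CPM, counts scaled to a common library size that is corrected for composition, and 17675 genes had enough counts to be tested. A gene is called when the adjusted p of the quasi-likelihood test of edgeR is at or under 0.1. The median standard error (SE) of a log2 fold change was 0.253 for genes under 1 CPM, 0.131 from 1 to 10 CPM, 0.0656 from 10 to 100 CPM and 0.0598 above 100 CPM. The tissue label was checked on markers of upper layer cortical neurons, whose summed level was 1146 to 1326 CPM in CX, 731 to 814 CPM in HIP and 657 to 793 CPM in CB of the same mice. Markers of deep layer neurons did not set CX apart from HIP, at 852.5 to 1022 CPM in CX, 951 to 1412 CPM in HIP and 435 to 492 CPM in CB. These sums were scaled by the library total alone. One library, WT replicate 4, stood apart. In the 5 pairs with another WT library the chi-square of its counts per degree of freedom was 83.6 to 103, and in the 25 other pairs within a genotype it was 7.95 to 18.6. For the lists and genes that it moved most, values without it are given as well.

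Cul3 transcripts fell in the mutant cortex to 55.1% of the WT level. In WT mice Cul3 was at 175 CPM in the lowest mouse, a median of 182 CPM and 195 CPM in the highest, and in Cul3+/- mice at 90.1, 103 and 106 CPM. The genotypes did not overlap, and the spread within each of them was small beside the gap. The means were 183 CPM ± 7.18 (SD, n = 6) and 101 CPM ± 5.85 (SD, n = 6). The log2 fold change, Cul3+/- over WT, was -0.86 with an SE of 0.0467 and an adjusted p of 3.96e-07 by edgeR. An exact 2-sided permutation test of the CPM gave p = 0.00216, the smallest that the 924 arrangements of 12 mice can give. The level of Cul3 thus matched the genotype label of every one of the 12 mice. The log2 fold change was -0.89 in HIP, -0.83 in CB and -0.79 in embryonic CX at E17.5. The test of a genotype difference that varies between regions gave an adjusted p of 0.896 for Cul3 by edgeR.

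Cul3 was the only gene called in P7 CX. It was 1 of 17675 tested genes, or 0.00566%, in the lower direction, and no gene, 0%, was called in the higher direction. At an unadjusted p under 0.05 there were 569 genes, 3.22% of those tested. Of these 269 were higher in the mutant (1.52%) and 300 were lower (1.7%). The CPM of the genotypes did not overlap for 16 genes that were higher (0.0905%) and 13 that were lower (0.0736%). Over all tested genes the median log2 fold change was 0.00, with 8841 genes above 0 and 8834 below. With factors for unwanted variation estimated from the replicates (RUVs), the approach named in the study's methods, the count of called genes was 14 with 3 factors and 46 with 5. The RUVs fits also differed from the main fit in the scaling of the libraries (by upper quartile) and in the test (likelihood ratio). With the main scaling and no factors, the likelihood ratio test of edgeR called 3 genes. The counts with RUVs therefore do not isolate the effect of the factors. The study's model also held sex, which the labels do not give and which was left out here. Some of the genes involved are named with their groups below.

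**Figure D1:**
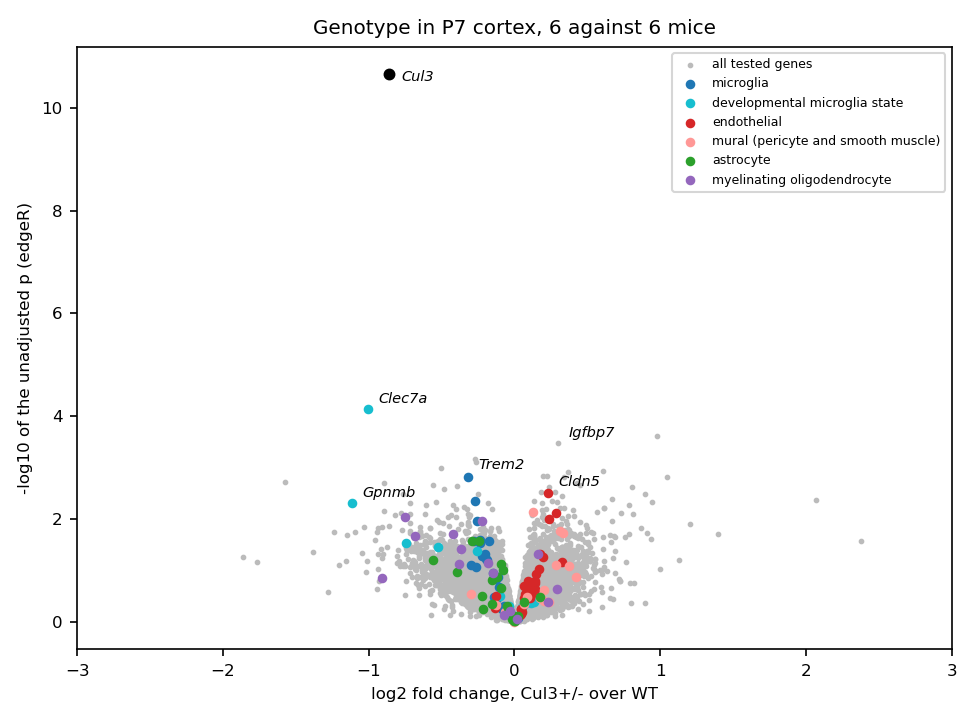
Log2 fold change (Cul3+/- over WT) against the negative log10 of the unadjusted p from edgeR for the 17675 tested genes in P7 CX, 1 point per gene, with the members of 6 cell type lists in colour. Cul3, at a log2 fold change of -0.86, lies far above all other genes, while the microglia members lie mostly left of 0 and the endothelial members mostly right of it.

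Among the protein-coding genes of at least 1 CPM, the 10 with the smallest p on the higher side held several that are known from blood vessels. Igfbp7, a secreted insulin-like growth factor binding protein of vessel walls, was at 12.9, 13.9 and 15.4 CPM (lowest, median, highest) in WT mice and at 15.6, 16.98 and 18.6 CPM in mutant mice. Every mutant mouse was above every WT mouse, and the log2 fold change was 0.30 with an SE of 0.0637 (unadjusted p = 0.00033, adjusted p = 0.9, edgeR). The same comparison gave 0.32 in HIP, 0.26 in CB and 0.22 in embryonic CX. Ets1, a transcription factor of endothelial and immune cells, had a log2 fold change of 0.23 (SE 0.0576), Pcdh12, an endothelial protocadherin, of 0.34 (SE 0.0876) and Cd93, a receptor on endothelial cells, of 0.24 (SE 0.0648). Also in this group were Sipa1, which switches off the GTPase RAP1 (0.18), Sept1, a septin (0.60), Zfp97, a zinc finger gene (0.37), the histone gene Hist2h3c2 (0.43) and Nqo1, described below. None of the 10 was called, and all had an adjusted p of 0.9 by edgeR. With 5 RUVs factors Igfbp7, Ets1, Pcdh12, Cd93, Hist2h3c2 and Nqo1 were called.

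On the lower side, the 10 genes with the smallest p besides Cul3 included Trem2, Laptm5 and Gpnmb, described with the microglia, and Tlr7, an endosomal receptor for single-stranded RNA that is made by microglia and other myeloid cells. Tlr7 was at 1.49, 1.81 and 2.29 CPM in WT and at 1.10, 1.29 and 1.5 CPM in mutant mice, with a log2 fold change of -0.48 (SE 0.133). The others were Pik3r3, a regulatory subunit of phosphoinositide 3-kinase (-0.26), Myh4, a myosin heavy chain of fast muscle (-0.51), Tmem132d, a membrane protein gene (-0.39), Ankrd39 (-0.25), P4ha3, a collagen prolyl hydroxylase subunit (-0.54), and Plcb2, a phospholipase C (-0.42). All had an adjusted p of 0.9 by edgeR, and Pik3r3, Myh4 and Gpnmb were called with 5 RUVs factors. Ankrd39 and Trem2 were the members of this group whose genotypes did not overlap.

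Microglia markers were lower in most members of their list. All 25 listed genes were tested, and 23 had a log2 fold change below 0. None was called, and 8 of 25 were lower and 0 of 25 higher at an unadjusted p under 0.05, where 1.7% and 1.52% of all genes were. The median log2 fold change was -0.17, in a range from -0.32 to 0.07. This list was chosen with results from these libraries known, so its counts are a description. Trem2, a lipid-sensing receptor of microglia, had the smallest p. It was at 3.61, 3.75 and 4.40 CPM (lowest, median, highest) in WT mice and at 2.93, 3.06 and 3.42 CPM in mutant mice. No mutant mouse reached the lowest WT mouse. The log2 fold change was -0.32 with an SE of 0.0822 (unadjusted p = 0.00154, adjusted p = 0.9, edgeR). It stayed between -0.35 and -0.28 when any 1 of the 12 libraries was left out.

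Laptm5, a lysosomal membrane protein of blood and microglial cells, was at 11.8, 12.7 and 16.2 CPM in WT mice and at 9.996, 10.8 and 11.99 CPM in mutant mice. Only the lowest WT mouse and the highest mutant mouse overlapped, and the log2 fold change was -0.27 (SE 0.0804, unadjusted p = 0.00451, adjusted p = 0.9, edgeR). Without WT replicate 4 it was -0.21. Further members under an unadjusted p of 0.05, named here after their values were seen, were C1qa, which encodes a chain of complement C1q (-0.26), Ly86, a partner of a lipid receptor (-0.24, without overlap), Fcer1g (-0.27), Fcrls (-0.17), Gpr34 (-0.24) and Csf1r, the receptor that microglia need to survive (-0.20). In bulk tissue, fewer microglia and less of these RNAs per microglial cell cannot be told apart. C1qa was called with 5 RUVs factors, at a log2 fold change of -0.28.

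The score of the list, the mean log2 CPM of its 25 members, was 2.87, 2.94 and 3.09 in WT mice and 2.61, 2.77 and 2.96 in mutant mice. The genotypes overlapped in this score, with the highest 2 mutant mice inside the WT range. The mouse names carry a prefix, C1, C2 or C4, whose meaning the labels do not give, and each prefix holds both genotypes. Within C1 the mean score of mutant minus WT mice was -0.17, within C2 -0.14 and within C4, with 1 mouse a genotype, -0.23. Without WT replicate 4 the median log2 fold change of the list was -0.16, with 9 members lower at an unadjusted p under 0.05. The count of such members was between 3, without Cul3+/- replicate 2, and 13, without Cul3+/- replicate 3.

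A second list held genes of an activated microglial state that is common in the first postnatal week, near developing white matter. Of its 14 genes 13 were tested, the exception being Cst7. At an unadjusted p under 0.05, 5 were lower and 0 higher, where 1.7% and 1.52% of all genes were. The median was -0.04, with 8 members below 0 and 5 above. The count of 5 was 2 without WT replicate 1, without Cul3+/- replicate 3 or without Cul3+/- replicate 4, and 3 without WT replicates 4 or 5 or Cul3+/- replicate 6, each left out alone. The score of mutant minus WT mice was -0.06 within prefix C1, -0.27 within C2 and -0.51 within C4. Clec7a, a receptor for fungal glucans that marks these microglia, was at 0.601, 0.787 and 1.08 CPM in WT mice and at 0.333, 0.398 and 0.5 CPM in mutant mice. Every mutant mouse was below every WT mouse. Its log2 fold change was -1.004 with an SE of 0.183, and it had the smallest p after Cul3 in the whole dataset (unadjusted p = 7.33e-05, adjusted p = 0.648, edgeR). It was called by the likelihood ratio test of edgeR and with 3 or 5 RUVs factors, with log2 fold changes from -1.04 to -1.01.

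Gpnmb, a glycoprotein of lipid-laden phagocytes, was at 1.46, 1.93 and 4.48 CPM in WT and at 0.571, 1.02 and 2.17 CPM in mutant mice. The mice varied widely within each genotype and the genotypes overlapped, so that a log2 fold change of -1.11 had an SE of 0.336 (unadjusted p = 0.00498, adjusted p = 0.9, edgeR). It was called with 3 and with 5 RUVs factors. The other members under an unadjusted p of 0.05, named after their values were seen, were Spp1, which encodes osteopontin (-0.75, SE 0.308), the integrin gene Itgax (-0.52, SE 0.226) and the growth factor gene Igf1 (-0.26, SE 0.115). Fabp5, a fatty acid binding protein and the member with the most reads, had a log2 fold change of 0.11 (SE 0.0974).

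Macrophages of the brain borders were covered by a further list, of which 10 of 13 genes were tested and 8 lay above 0, with a median of 0.05 that was -0.0159 without Cul3+/- replicate 3. Folr2, a folate receptor of these cells and of some embryonic microglia, was at 0.425, 0.636 and 0.949 CPM in WT and at 0.257, 0.356 and 0.550 CPM in mutant mice. Its log2 fold change was -0.89 (SE 0.237, unadjusted p = 0.002, adjusted p = 0.9, edgeR), opposite in sign to most of its list. Cd36, a scavenger receptor, stood at 0.30 (SE 0.196) and Stab1, a scavenger receptor of perivascular cells, at 0.04 (SE 0.105). The score of this list was 0.71 to 1.25 in WT mice. It was 1.28 to 1.36 in mutant replicates 1 to 3 and 0.40 to 0.83 in replicates 4 to 6, the same split as in the fibroblast list described below.

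Trem2 and Laptm5, the microglia members with the smallest p, are also shown by their promoters. The letters searched were GAGGAA, the core that PU.1, the master transcription factor of microglia, binds, on both strands of the 300 bases from 250 before to 50 after the gene start (RefSeq, GRCm38.p6). They stood in 11 of the 18 microglia genes that matched a promoter (61.1%) and in 28.3% of all 27025 promoters. Capitals mark the match, which in both genes lies on the other strand. The windows lie at chr17:48346341-48346386 and at chr4:130913258-130913303, on the plus strand.
Trem2: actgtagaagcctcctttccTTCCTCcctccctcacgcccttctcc
Laptm5: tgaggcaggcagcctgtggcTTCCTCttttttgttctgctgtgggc
The matches begin 40 and 38 bases before the RefSeq gene start. The annotation used for the gene names starts Laptm5 at chr4:130913125, so there its match lies inside the gene. A match of 6 letters is a description of the sequence and does not show that PU.1 binds there. Any part of this element in the genotype difference was not tested.

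**Figure D2:**
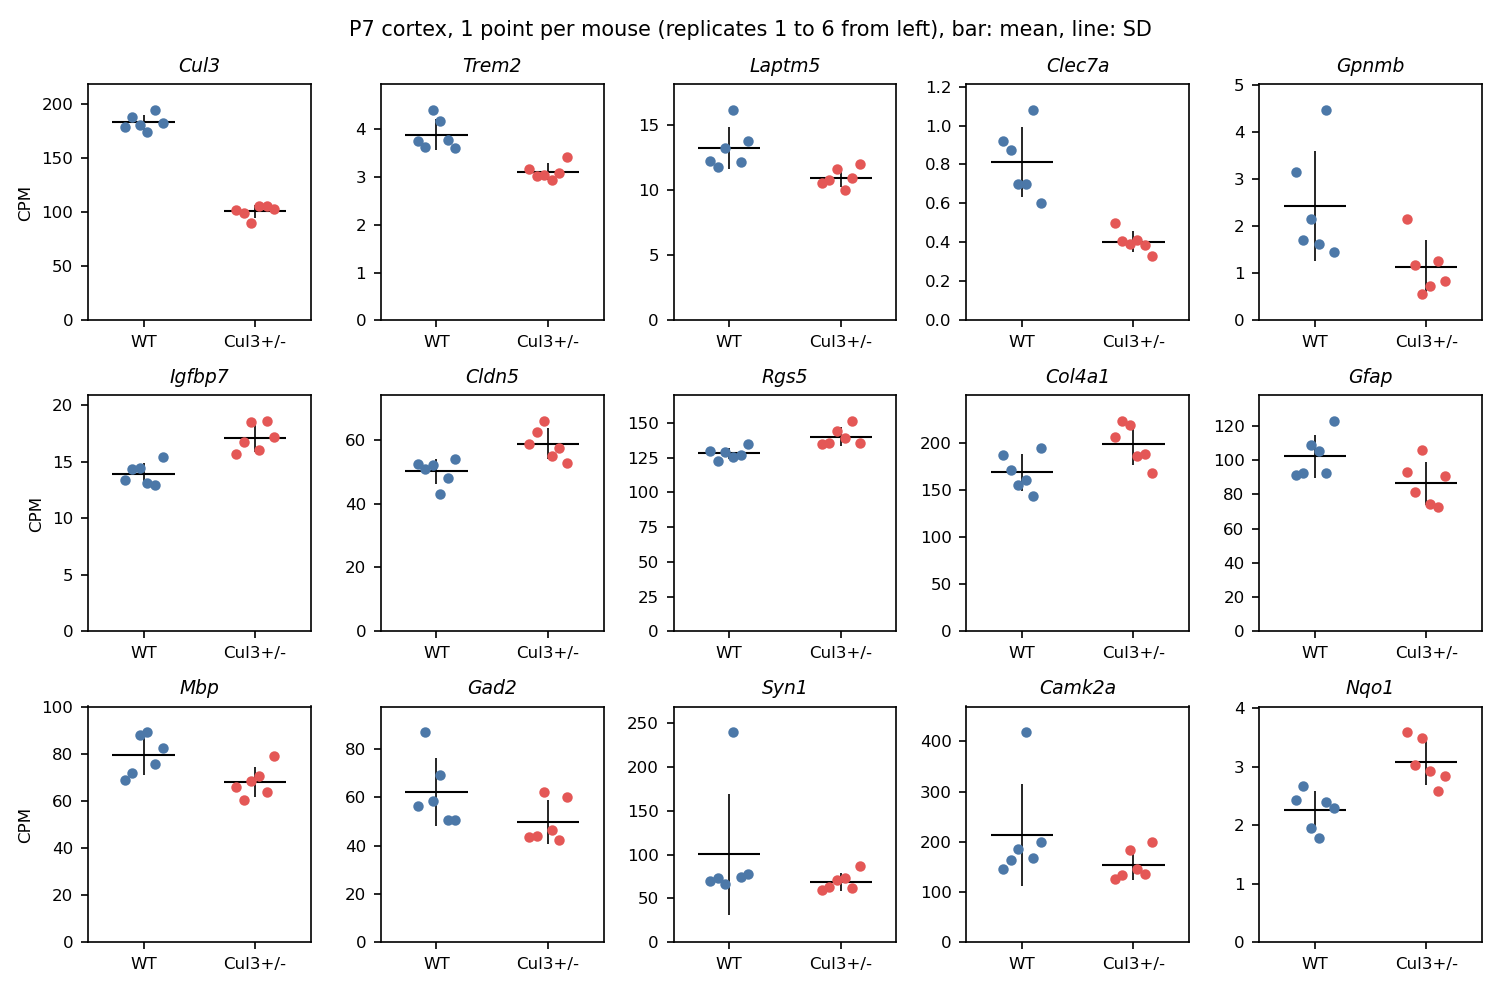
CPM of 15 genes in P7 CX, 1 point per mouse with replicates 1 to 6 from left to right in each genotype, on axes that start at 0, with the mean as a bar and the SD as a line. Cul3, Trem2, Clec7a and Igfbp7 have no overlap between the genotypes, and 1 WT mouse, replicate 4, lies far above all others for Syn1 and Camk2a.

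Vascular genes lay on the other side of 0 from the microglia. All 28 endothelial genes were tested, and 26 had a log2 fold change above 0, with a median of 0.10 and a range from -0.13 to 0.33. None was called, and 4 were higher and 0 lower at an unadjusted p under 0.05, where 1.52% and 1.7% of all genes were. Cldn5, a tight junction protein of the blood-brain barrier, was at 43.0, 51.5 and 53.9 CPM (lowest, median, highest) in WT mice and at 52.7, 58.0 and 65.9 CPM in mutant mice. Only the 1 lowest mutant mouse fell within the WT range. The log2 fold change was 0.23 (SE 0.0646, unadjusted p = 0.00309, adjusted p = 0.9, edgeR). Ctla2a, a small protease inhibitor, was at 4.19, 5.01 and 5.69 CPM in WT and at 5.38, 6.11 and 6.58 CPM in mutant mice, at a log2 fold change of 0.29 (SE 0.0922). Tie1 and Tek, the paired angiopoietin receptors of vessels, were at 0.23 (SE 0.0787) and 0.17 (SE 0.0797) and are named after their values were seen. Slco1c1, a thyroid hormone transporter of the barrier and the member with the most reads, stood at 0.07 (SE 0.0674).

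The endothelial score ran from 3.49 over a median of 3.65 to 3.77 in WT mice and from 3.65 over 3.72 to 3.86 in mutant mice. The genotypes overlapped, and 5 of the 6 mutant mice were above all WT mice but 1. Mutant minus WT mice gave 0.15 within prefix C1, 0.04 within C2 and 0.23 within C4. The median log2 fold change of the list was between 0.07 and 0.12 with any 1 library left out, and 0.11 without WT replicate 4.

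Mural cells, the pericytes and smooth muscle around vessels, were covered by 18 genes, of which 17 were tested. Of these 12 lay above 0, and the median was 0.18. At an unadjusted p under 0.05, 3 were higher and 0 lower, beside 1.52% and 1.7% of all genes. Rgs5, a regulator of G protein signals in pericytes, was at 123, 128 and 135 CPM in WT and at 134, 138 and 151 CPM in mutant mice. The genotypes overlapped only at the highest WT and the lowest mutant mouse. Its log2 fold change was 0.13 with an SE of 0.0414 (unadjusted p = 0.00738, adjusted p = 0.9, edgeR). Myl9, a contractile myosin light chain, stood at 0.32 (SE 0.117) and Higd1b, a pericyte marker named after its value was seen, at 0.33 (SE 0.125). Below 0 lay 5 members, among them Anpep at -0.30 and Notch3 at -0.13, also named after their values were seen. Without WT replicate 4 Anpep stood at -0.09 and Notch3 at 0.09. The mural genes Pdgfrb and Kcnj8, named in the same way, were at 0.08 and 0.06.

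The basement membrane list, with the collagens and laminins that vessels rest on, had 11 of 12 members above 0 and a median of 0.13. At an unadjusted p under 0.05, 2 were higher, beside 1.52% of all genes. Col4a1, a main chain of basement membrane collagen, was at 144, 166 and 195 CPM in WT and at 168, 196 and 223 CPM in mutant mice, at a log2 fold change of 0.23 (SE 0.0839). Col18a1, the source of endostatin, was at 14.5, 18.2 and 20.9 CPM in WT and at 18.8, 22.9 and 27.9 CPM in mutant mice, at 0.36 (SE 0.120). The genotypes overlapped for both genes. In mutant replicates 1 to 3 Col18a1 was at 25.7 to 27.9 CPM and Col4a1 at 206 to 223 CPM. In replicates 4 to 6 they were at 18.8 to 20.1 CPM and 168 to 187 CPM, within the WT ranges. With 5 RUVs factors Cldn5, Col4a1 and Col18a1 were called, at 0.20, 0.21 and 0.35.

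Fibroblast and meningeal genes had the largest median of the 30 lists, 0.28, and all 20 tested members lay above 0. Yet 1 of the 20 was higher at an unadjusted p under 0.05, beside 1.52% of all genes. The mutant mice fell into separate ranges. The score of the list was 2.97, 3.19 and 3.58 (lowest, median, highest) in WT mice. In the mutant mice it was 3.95 to 4.09 in replicates 1, 2 and 3 and 2.59 to 3.15 in replicates 4, 5 and 6. So 3 mutant mice were above every WT mouse and 1 was below every WT mouse. Foxc2, a transcription factor of the meninges, was at 0.837, 0.924 and 1.26 CPM in WT and at 0.462, 1.86 and 2.29 CPM in mutant mice, with a log2 fold change of 0.69 (SE 0.309). Slc47a1, a transporter of meningeal fibroblasts, stood at 0.55 (SE 0.286) and the growth factor gene Igf2 at 0.28 (SE 0.202). Without Cul3+/- replicate 5 the median of the list was 0.43 and 8 members were higher at an unadjusted p under 0.05. The mural score moved with this list, at 2.48 to 2.64 in mutant replicates 1 to 3 and 2.12 to 2.31 in replicates 4 to 6. The endothelial score was 3.72 to 3.86 in the former and 3.65 to 3.72 in the latter. The basement membrane score was 5.73 to 5.81 in mutant replicates 1 to 3 and 5.42 to 5.52 in replicates 4 to 6. In WT mice it was 5.31 to 5.73. The part of meningeal content in the vascular values was not tested.

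**Figure D3:**
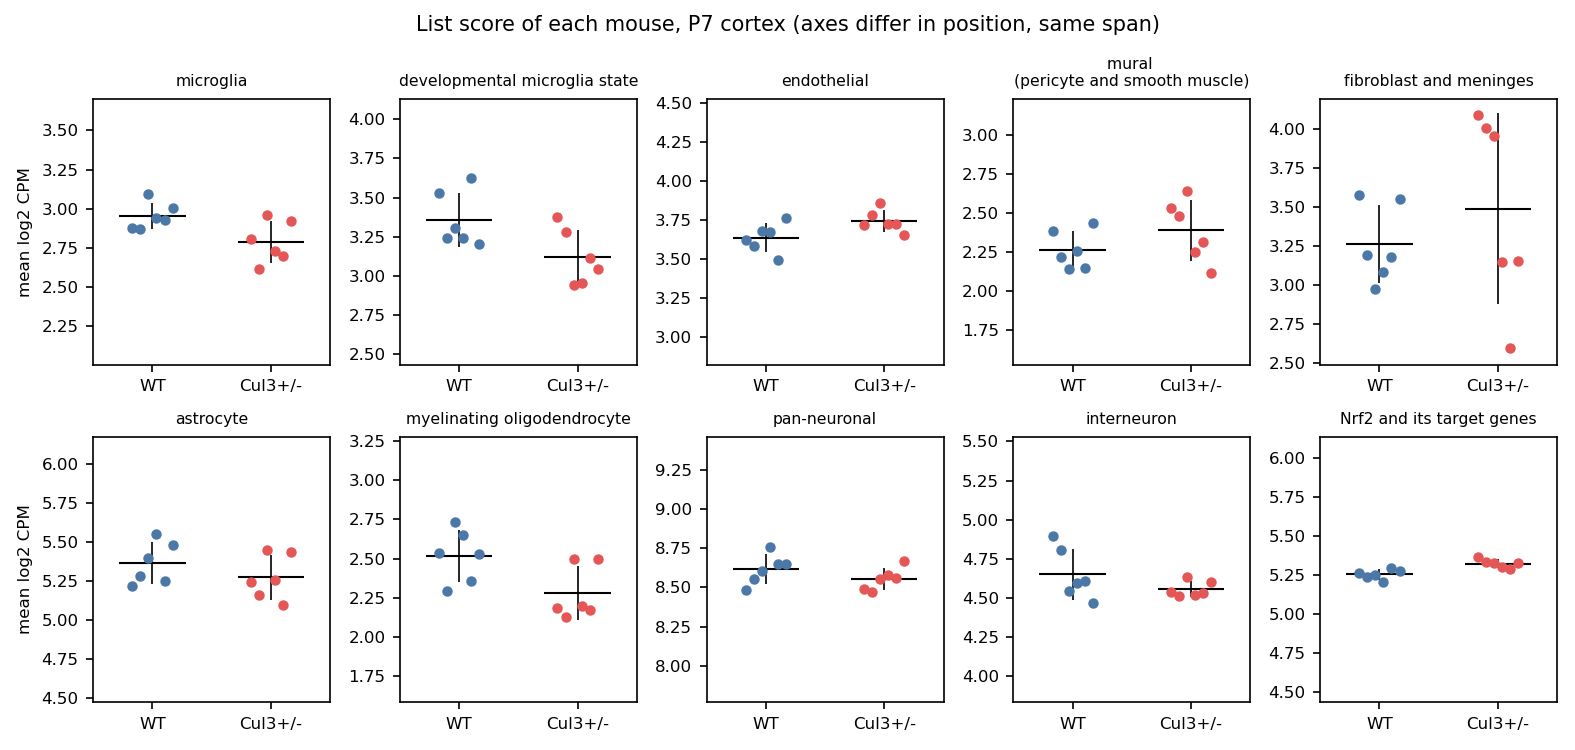
List scores (mean log2 CPM of the tested members) of each mouse in P7 CX for 10 lists, replicates 1 to 6 from left to right, with the mean as a bar and the SD as a line, on axes of equal span. The microglia and myelinating oligodendrocyte scores of most mutant mice lie below the WT mean, the endothelial scores of most lie above it, and the fibroblast scores of the mutant mice fall into separate ranges.

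Astrocyte genes lay close to 0. Of 26 tested members 20 were below 0, with a median of -0.05. At an unadjusted p under 0.05, 2 were lower and 0 higher, beside 1.7% and 1.52% of all genes. With 1 library left out the count of lower genes was 0 to 3. It was 0 without WT replicate 6, Cul3+/- replicate 2 or Cul3+/- replicate 5, each left out alone. Gfap, the intermediate filament of astrocytes, was at 91.6, 98.8 and 123 CPM in WT and at 72.8, 86.0 and 106 CPM in mutant mice. The ranges overlapped, and the log2 fold change was -0.24 (SE 0.0977, unadjusted p = 0.0263, adjusted p = 0.9, edgeR). S100b, a calcium-binding protein of astrocytes and some oligodendroglia, stood at -0.29 (SE 0.119). Slc1a2, the main glutamate transporter, had a log2 fold change of -0.40 (SE 0.232) that turned on WT replicate 4, at 1920 CPM beside 682 to 1051 CPM in the other WT mice. Without that library it was -0.11.

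The oligodendrocyte lineage was lower in many of its members. Of the 15 tested genes of myelinating cells 11 lay below 0, and the median was -0.18. At an unadjusted p under 0.05, 5 were lower and 1 higher, beside 1.7% and 1.52% of all genes. Mbp, which encodes myelin basic protein, was at 68.8, 79.1 and 89.3 CPM in WT and at 60.5, 67.2 and 78.9 CPM in mutant mice. The log2 fold change was -0.22 (SE 0.0762, unadjusted p = 0.0111, adjusted p = 0.9, edgeR), and it was called with 5 RUVs factors. Fa2h, an enzyme of myelin lipids, stood at -0.75 (SE 0.251), and at -0.52 without WT replicate 4, which was at 1.70 CPM beside 0.699 to 0.974 CPM in the other WT mice. Named after their values were seen, Myrf, the transcription factor that starts myelination, stood at -0.68 (SE 0.265) with WT replicate 4 at 4.41 CPM beside 1.43 to 2.26 CPM in the other WT mice and a log2 fold change of -0.36 without it, and the connexin gene Gjc3 stood at -0.37 (SE 0.161). Trf, which encodes transferrin, was the 1 gene on the higher side, at 0.16 (SE 0.0759). The count of 5 lower genes was 3 without WT replicate 3 and 8 without Cul3+/- replicate 6. The score of the list was 2.29, 2.53 and 2.73 in WT mice and 2.13, 2.19 and 2.499 in mutant mice. Mutant minus WT was -0.26, -0.24 and -0.19 within prefixes C1, C2 and C4.

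Oligodendrocyte precursor genes, 13 of 13 tested, had 12 members below 0 and a median of -0.08. Gpr17, a receptor of committed precursors, was at 54.1, 89.4 and 110 CPM in WT and at 58.97, 69.5 and 79.0 CPM in mutant mice, at a log2 fold change of -0.32 (SE 0.136, unadjusted p = 0.0334, adjusted p = 0.9, edgeR). Bcas1, which marks cells that are starting to myelinate, stood at -0.26 (SE 0.133). Pdgfra, the growth factor receptor of the precursors, was at 148, 154 and 162 CPM in WT and at 146, 153 and 160 CPM in mutant mice, with a log2 fold change of -0.02 and an SE of 0.0381.

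Neuronal lists had no member called and few under an unadjusted p of 0.05. The medians were -0.03 for pan-neuronal genes (20 of 20 tested), -0.08 for excitatory neurons and their synapses (19 of 19), -0.02 for upper layers (13 of 13) and -0.06 for deep layers (16 of 16), and none of these 4 lists held a gene under an unadjusted p of 0.05 in either direction. With 1 library left out the pan-neuronal and excitatory lists held up to 3 lower genes each. Without WT replicate 4 the medians were 0.02 for upper layers, 0.0081 for deep layers and -0.04 for excitatory neurons, so the sign for both layer lists rested on that library. Several large log2 fold changes turned on WT replicate 4. Syn1, a protein of synaptic vesicles, was at 66.0, 73.6 and 240 CPM in WT and at 59.1, 67.0 and 86.8 CPM in mutant mice, and its log2 fold change of -0.53 (SE 0.286) was -0.06 (SE 0.082) without that library. Vamp2, the vesicle SNARE, went from -0.47 to -0.11 and Camk2a, the kinase of glutamate synapses, from -0.47 to -0.16. Slc17a7, the vesicular glutamate transporter, was at 340, 403 and 472 CPM in WT and at 288, 332 and 420 CPM in mutant mice, with a log2 fold change of -0.22 (SE 0.107) that was -0.17 without it. Tubb3, a neuronal tubulin and the pan-neuronal member with the most reads, stood at 0.11 (SE 0.0784). The mitochondrially encoded mt-Nd5, a subunit of respiratory complex I, stood at -0.80 (SE 0.412) and at -0.01 without WT replicate 4.

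Interneuron genes had a median of -0.12 over 21 tested members, 17 of them below 0. At an unadjusted p under 0.05, 2 were lower, beside 1.7% of all genes. That count of 2 was 0 without WT replicate 2 or Cul3+/- replicates 1, 2, 4 or 5, each left out alone. It was 4 without Cul3+/- replicate 3. Slc32a1, the vesicular transporter of GABA, was at 26.6, 28.8 and 41.2 CPM in WT and at 24.2, 25.1 and 29.1 CPM in mutant mice, with a log2 fold change of -0.24 (SE 0.0969). Gad2, which makes GABA, was at 50.8, 57.5 and 87.2 CPM in WT and at 42.2, 45.2 and 62.3 CPM in mutant mice, at -0.32 (SE 0.140). WT replicate 2 was the highest mouse for both genes, and its score over striatal markers, 4.10, was above the 3.34 to 3.49 of the other WT mice. The highest score of the interneuron list was that of WT replicate 1, at 4.89, and its striatal score was 3.38. With 1 library left out the median of the list was -0.17 to -0.05, highest without WT replicate 1. The interneuron score did not keep its direction within the prefixes, at -0.32 in C1, 0.05 in C2 and -0.08 in C4. The part of striatal tissue in these values was not tested.

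Progenitor genes, 17 of 19 tested, had a median of 0.03. At an unadjusted p under 0.05, 1 member was higher, beside 1.52% of all genes. That member was Nes, which encodes the filament nestin of progenitors and growing vessels. Nes was at 26.7, 29.6 and 34.1 CPM in WT and 29.6, 34.7 and 39.1 CPM in mutant mice. Its log2 fold change was 0.21 (SE 0.0843). The count of 1 was 0 without WT replicates 3, 4 or 6 or Cul3+/- replicates 1 or 2, each left out alone. Cell cycle genes lay above 0 in 21 of 24 members, with a median of 0.10. Here 1 member, the cyclin gene Ccnb2, was higher by that rule, at 0.29 (SE 0.111), beside the same 1.52% of all genes. The 16 immediate early genes, which neurons switch on with activity, had 14 members below 0 and a median of -0.08. Arc, a synaptic member of that list, stood at -0.23 (SE 0.103).

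The partners of CUL3 itself were close to 0. The adaptor list, 28 of 28 tested, had a median log2 fold change of 0.02 in a range from -0.18 to 0.12, and 0 members were under an unadjusted p of 0.05. Kctd5 stood at 0.11 (SE 0.0532) and Ivns1abp at 0.12 (SE 0.0683). The other cullins and their regulators, 25 of 25 tested, had a median of 0.02 in a range from -0.10 to 0.10. The list of BACURD adaptors, RhoA and its actin pathway, 25 of 25 tested, had a median of -0.00 in a range from -0.16 to 0.16, again with 0 members under an unadjusted p of 0.05. In this list Ezr, which ties actin to the membrane, stood at 0.12 (SE 0.063) and Rhoc, a relative of RhoA, at 0.16 (SE 0.0856). Neuronal and glial cytoskeleton genes had a median of 0.00, and Tubb4a, a tubulin, went from -0.39 (SE 0.195) to -0.11 without WT replicate 4. These are RNA levels, and the ligase acts on proteins, which were not measured in these libraries.

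Nrf2 and its target genes had a median of 0.07 over 21 tested members, 14 of them above 0. Nqo1, a quinone reductase widely used as a readout of Nrf2, was the 1 member under an unadjusted p of 0.05 in edgeR. By that rule 1.52% of all genes were higher. Nqo1 was at 1.79, 2.34 and 2.68 CPM in WT mice and at 2.59, 2.98 and 3.60 CPM in mutant mice. Only the highest WT mouse and the lowest mutant mouse overlapped, and the log2 fold change was 0.45 (SE 0.121, unadjusted p = 0.0022, adjusted p = 0.9). It was 0.66 in HIP and 0.30 in CB. The median of the whole list was 0.0146 in HIP, 0.015 in CB and 0.07 in embryonic CX. At an unadjusted p under 0.05, 2 of its 21 genes were higher in HIP and 5 of 21 in CB, and 0 were lower in both. By that rule 3.45% of all genes were higher in HIP and 3.78% in CB. Prdx1, a peroxide-removing enzyme, was at 92.5, 109 and 121 CPM in WT and at 109, 116 and 124 CPM in mutant mice, at 0.13 (SE 0.0595, unadjusted p = 0.0504). Ftl1, the ferritin light chain, stood at 0.07 (SE 0.0666). The score of the list was 5.20, 5.26 and 5.30 in WT and 5.29, 5.33 and 5.37 in mutant mice, a difference of means of 0.07 with SDs of 0.0327 and 0.0271. Mutant minus WT was 0.0997 within prefix C1, 0.0758 within C2 and -0.0078 within C4.

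The binding element of Nrf2 was searched as TGACNNNGC on both strands of the same promoters. It stood in 8 of the 18 genes of the list that matched a promoter (44.4%) and in 12.5% of all 27025 promoters. It is shown for Prdx1 and, as members with log2 fold changes near 0, for Gclm and Srxn1, which make and repair thiol antioxidants. Capitals mark the match, on the other strand in each gene. The windows lie at chr4:116685446-116685494, chr3:122245403-122245451 and chr2:152105532-152105573, on the plus strand of GRCm38.p6.
Prdx1: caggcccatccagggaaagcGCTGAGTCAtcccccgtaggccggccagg
Gclm: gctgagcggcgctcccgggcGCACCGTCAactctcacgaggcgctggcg
Srxn1: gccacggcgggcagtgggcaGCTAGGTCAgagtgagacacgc
Prdx1 stood at a log2 fold change of 0.13, Gclm at 0.01 (SE 0.0715) and Srxn1 at -0.03 (SE 0.0625). As Gclm and Srxn1 were picked for values near 0, these values do not speak for the other genes that hold the element.

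**Figure D4:**
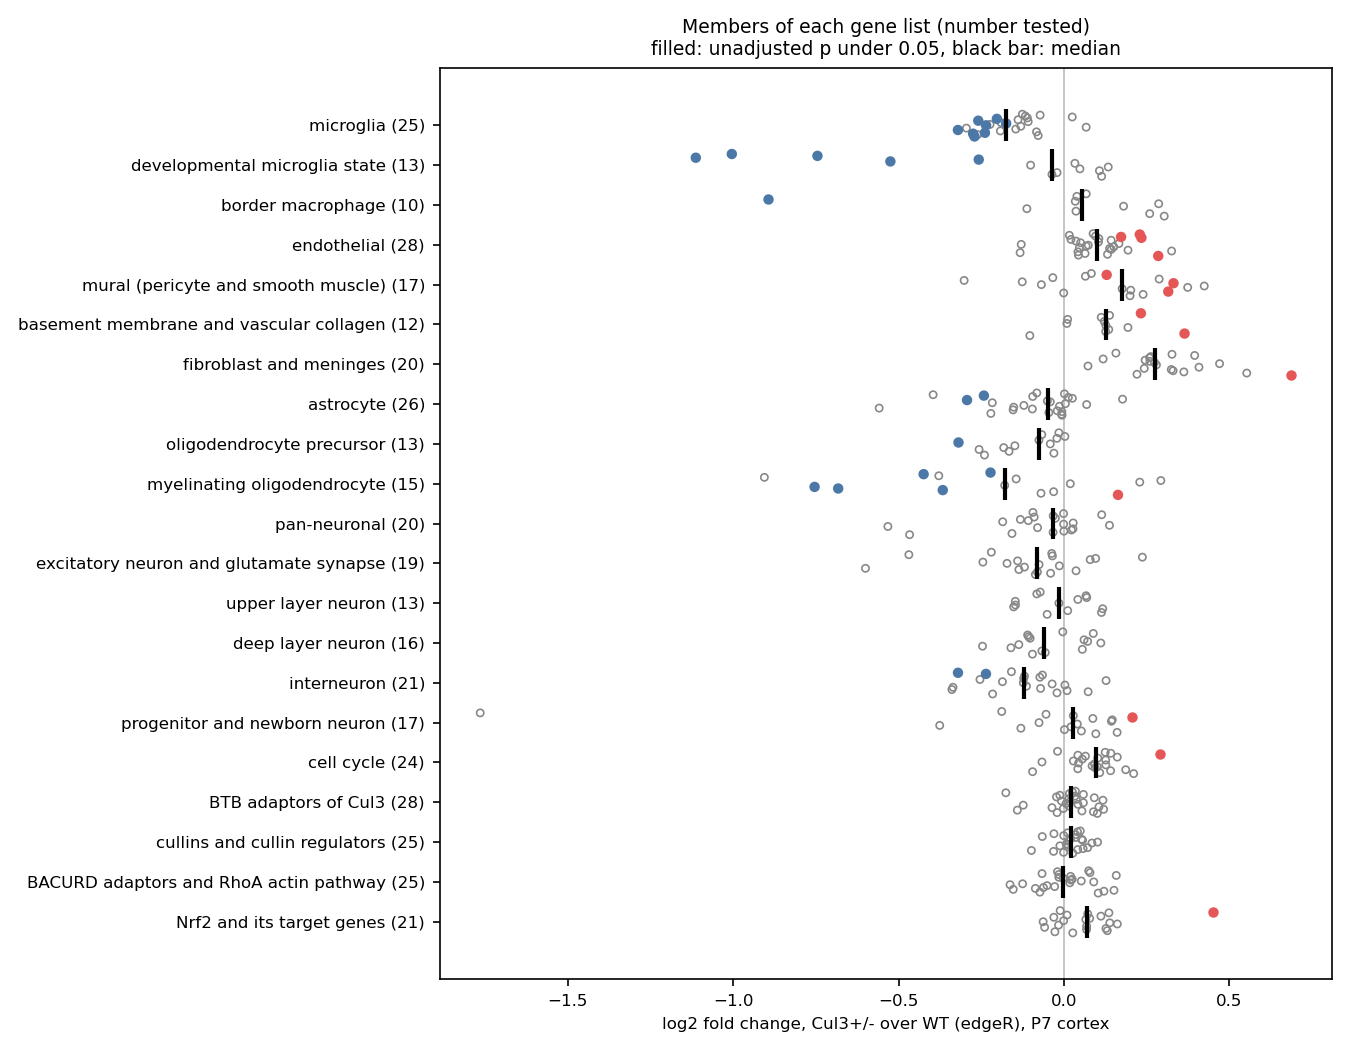
Log2 fold change (Cul3+/- over WT, edgeR) of each tested member of 21 gene lists in P7 CX, 1 point per gene, filled where the unadjusted p was under 0.05, with the median as a black bar. The microglia median is -0.17, the endothelial median 0.10 and the fibroblast median 0.28, while the adaptor, cullin and RhoA lists gather closely around 0.

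Markers of tissue that a cortex dissection could carry were also read. Striatal markers had a median of -0.13 (14 of 16 tested), which was 0.0129 without WT replicate 2, and thalamic markers of -0.05 (8 of 10), which was 0.0629 without WT replicate 4. Choroid plexus markers had a median of -0.07 (9 of 14), which was 0.0428 without WT replicate 5. The medians were -0.15 for hippocampal markers (8 of 8), 0.19 for ependymal markers (9 of 10) and 0.20 for blood genes (6 of 11). Among these 6 lists the thalamic gene Prkcd, a protein kinase, stood at 0.21 (SE 0.0916), and the ependymal gene Tmem212 stood at 1.40 (SE 0.531) from means of 0.162 and 0.428 CPM. They were the members of these lists under an unadjusted p of 0.05. The range of summed levels was 10.48 to 36.3 CPM for choroid plexus genes in mutant mice and 11.04 to 47.4 CPM in WT mice, and the listed choroid genes Otx2, Cldn2, Kcne2, Calml4 and F5 were too low to be tested.

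The microglia and vascular values of the same mice are set beside those of the other regions. The microglia list had a median of -0.17 in CX, -0.13 in HIP and -0.12 in CB, with 8, 4 and 2 of its 25 genes lower at an unadjusted p under 0.05 and 0, 1 and 0 higher. In HIP 1.6% of all genes were lower and 3.45% higher by that rule, and in CB 1.11% and 3.78%. The endothelial list had medians of 0.10, 0.15 and 0.10, with 4, 6 and 8 of its 28 genes higher and 0 lower in each region. The fibroblast list had medians of 0.28, 0.31 and 0.16 and the myelinating list of -0.18, -0.11 and -0.06. The regions came from the same mice, so they are not independent. Choroid plexus genes had a median of 1.87 in HIP and 1.86 in CB and of -0.07 in CX, and the part of choroid plexus in the HIP and CB values was not tested. Clec7a stood at -0.55 in HIP and -0.71 in CB, Gpnmb at -0.83 and -0.75, Trem2 at -0.18 and -0.36, and Cldn5 at 0.18 and -0.00.

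Whether the genotype difference varied between the 3 regions was tested in 1 model with mouse as a block. No gene of 19381, 0%, was called, and 886 genes (4.57%) had an unadjusted p under 0.05 by edgeR. That count was 612 to 2204 with 1 mouse left out, highest without Cul3+/- replicate 4. Among the named genes the smallest unadjusted p values were 0.0011 for Zfp97, 0.00302 for Dsp, a desmosome gene of the hippocampal list, and 0.00523 for Ankrd39, each with an adjusted p of 0.826. For Clec7a the p was 0.574 and for Trem2 0.598, which does not show that the regions were alike.

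Embryonic cortex at E17.5, from other mice, had medians nearer 0 for the microglia and vascular lists. The microglia list had a median of 0.04 there, with 0 of its tested genes lower at an unadjusted p under 0.05, a rule that 1.08% of all genes met, while 0.585% were higher by it. The endothelial median was 0.03, the fibroblast median 0.05 and the myelinating median 0.04. The astrocyte median was -0.05 at both ages. Clec7a, Gpnmb, Folr2 and Nqo1 were too low to be tested in embryonic cortex. The test of a genotype difference that varies between E17.5 and P7 called no gene of 18402, 0%, and 235 genes (1.28%) had an unadjusted p under 0.05 by edgeR, so no difference between the ages passed the threshold. The count of 235 was 198 to 466 with 1 library left out, highest without WT replicate 4 of E17.5. It was 745 without a filter on low counts and 948 in the fit with a replicate block.

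**Figure D5:**
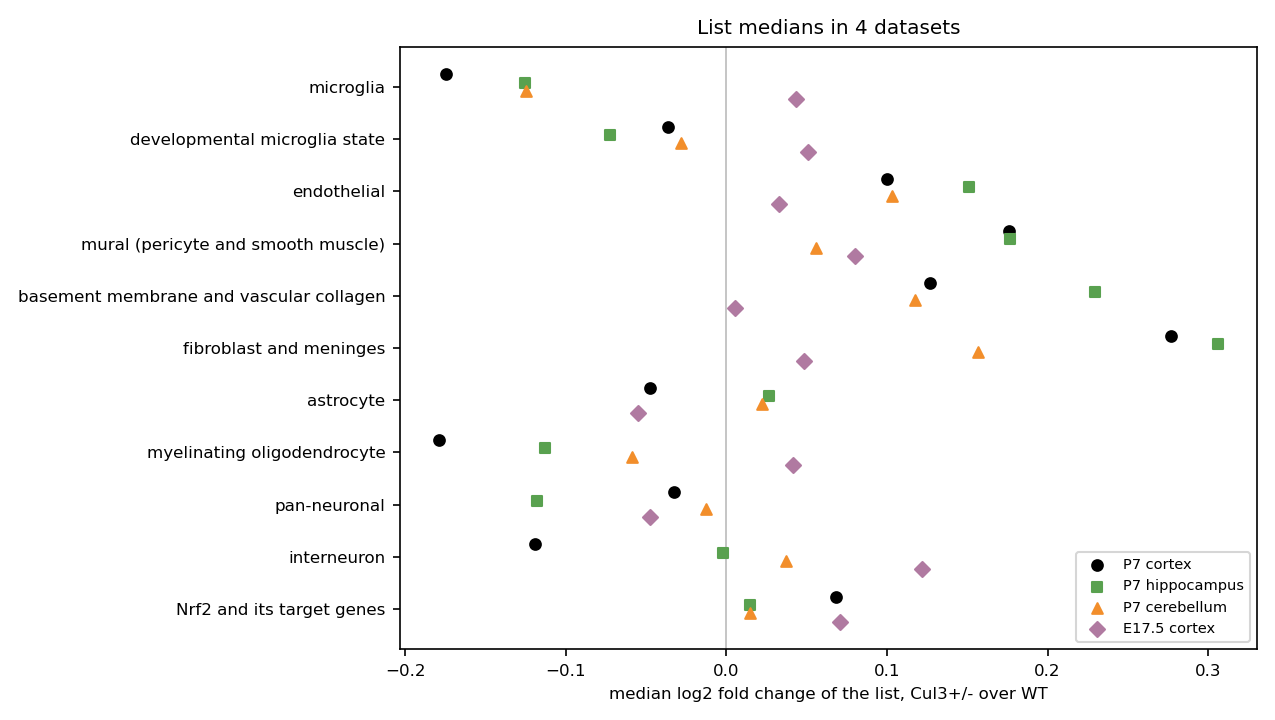
Median log2 fold change (Cul3+/- over WT) of 11 gene lists in P7 cortex, P7 hippocampus, P7 cerebellum and E17.5 cortex, 1 symbol per dataset. The microglia median is -0.17, -0.13 and -0.12 in the P7 regions, which came from the same 12 mice, and 0.04 in embryonic cortex.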

How the data were processed

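RNA from the cortex of 12 P7 mice was sequenced as stranded, paired-end, ribosome-depleted libraries. The authors trimmed reads with Cutadapt 1.14, aligned them to GRCm38 with STAR 2.5.3a and estimated gene-level expected counts with RSEM 1.3, and these expected counts were deposited. They were rounded to whole numbers here. Gene names and biotypes came from GENCODE M21, and 0 columns belonged to no sample. Library totals bound the precision, as the SE by level in the report shows. Genes were kept with filterByExpr (minimum count 10, minimum total 15), scaled with TMM and tested with the quasi-likelihood test of edgeR 4.0.16 in R 4.3.3, with genotype as the only term, at a Benjamini-Hochberg adjusted p of 0.1. Alternatives used limma 3.58.1, DESeq2 1.42.0 and RUVs factors, and the fits with RUVs factors differed from the main fit in scaling and test as well. CPM are counts over the scaled library size, and list scores are means of log2 CPM with a prior count of 2.

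The genes named were Cul3, the 10 higher and 10 lower protein-coding genes of at least 1 CPM with the smallest p, and, in each of 30 lists, the 2 members with the smallest p and the member with the highest mean CPM. Others are marked as chosen after their values were seen. Some genes that this rule names are not reported here. The members, lists and tests were chosen with earlier results of these data known. Counts over 17514 genes were simulated from the P7 CX libraries, with 50 genes changed at each size. The test recovered 22% of genes changed by 0.25 on the log2 scale, 54% at 0.5, 80% at 0.8 and 94% at 1. Many changed genes ease the adjusted threshold, and no simulated library stood apart as WT replicate 4 did. The rates can therefore be higher than in the real libraries. P-values of the genotype tests weigh a difference against the spread between mice. Those of the test between regions, with mouse as a block, weigh it against the spread within mice.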

Additional observations from a re-analysis of the deposited data

Results flagged for a closer look

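Within a genotype, 24 of 262 groups of 6 mice (the named genes reported here and list scores, in each genotype) held a mouse far from the others by Dixon's ratio at its 95% critical value. Chance alone marks about 1 in 20 groups. WT replicate 4 was the mouse in 15 of the 24. It was the highest WT mouse for Syn1 (239.6 CPM, the others 66.0 to 78.1), Vamp2 (431.6 CPM), Camk2a (419.1 CPM), Grin2b (1640 CPM), Tubb4a (296.3 CPM), Slc1a2 (1920 CPM), Etv1 (113.2 CPM), Fa2h (1.702 CPM), Cops6 (54.79 CPM), Plekhg1 (30.69 CPM), mt-Nd5 (540.4 CPM) and mt-Nd4 (731.9 CPM). It was the lowest for Tuba1a (6175 CPM), Fabp5 (192.3 CPM) and Kctd5 (47.54 CPM).

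WT replicate 2 was the highest WT mouse for the striatal score (4.096, the others 3.345 to 3.49), Penk (19.93 CPM, the others 2.98 to 6.36) and Slc32a1 (41.16 CPM). WT replicate 5 was the highest for Ccnb2 (2.979 CPM) and for Ttr, the transthyretin gene of the choroid plexus (33.32 CPM, the others 0.279 to 0.757). Among mutant mice, replicate 2 was the highest for Ttr (21.74 CPM, the others 0.282 to 2.17), replicate 6 for Tmem132d (16.01 CPM), and replicate 3 was the lowest for Nae1 (47.84 CPM) and Cand1 (210.5 CPM).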

How the results depend on the processing

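Cul3 was called under every alternative run. The count of called genes was 3 with DESeq2 (1 higher, 2 lower) and 3 with the likelihood ratio test of edgeR (3 lower), 14 with 3 RUVs factors (7 higher, 7 lower) and 46 with 5 (28 higher, 18 lower). Genes with an unadjusted p under 0.05 numbered 1192 with no filter on low counts (507 higher, 685 lower), 977 with the mouse-name prefix as a block (494 higher, 483 lower) and 343 to 887 without 1 library (164 to 421 higher, 179 to 537 lower), and the higher ones numbered 432 and 503 with 3 and 5 RUVs factors. Genes without overlap, 29 in all, numbered 39 to 80 without 1 library, an alternative chosen after seeing the data. With fewer mice the ranges overlap less easily, so this rise does not speak to stability. The genotype by region test called 2 genes by the likelihood ratio test, 1 without a filter, 1 with DESeq2 and 0 to 1 without 1 mouse.

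The deviations of same-numbered mice from their genotype means correlated at 0.159, 0.157, 0.087, 0.258, 0.331 and 0.177, all above the median of -0.061 for mice of different numbers. Same-numbered mice also share a name prefix. The labels do not say that a number marks a shared litter or batch and 1 correlation was under 0.1, so the block was kept as an alternative. The replicate block gave 957 genes with an unadjusted p under 0.05 (487 higher, 470 lower) and turned the log2 fold change of Ttr to 0.72, Nr4a3 to 0.01 and Foxj1 to 0.038.

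Other genes near 0 also turned sign. With limma-voom Dcx was at 0.0997, Plekhg1 0.0439, Cfl1 -0.0026, Ttr 0.22, Nr4a3 0.114 and Foxj1 0.20. With 3 RUVs factors Pcna was at -0.0008, Dcx 0.041, Plekhg1 0.0344, Nr4a3 0.0958 and Foxj1 0.15, and with 5 Crym was at -0.0129, Pcna -0.015, Dcx 0.0215, Plekhg1 0.0416, Adcy5 0.0025, Cfl1 -0.0188, Cand1 -0.0029, Nr4a3 0.0678 and Foxj1 0.17. With the prefix block Ttr was at 1.22 and Nr4a3 at 0.001, and with Xist as a covariate Ttr was at 0.13, Nr4a3 0.0066 and Foxj1 0.0159. Without 1 library the ranges were -0.0527 to 0.0261 for Adcy5, -0.0159 to 0.0947 for Stab1, -0.13 to 0.22 for Foxj1, -0.68 to 0.0078 for mt-Nd4, -0.0163 to 0.0802 for Pcna, -0.16 to 0.0639 for Dcx, -0.0868 to 0.0629 for Plekhg1, -0.0113 to 0.0518 for Cfl1, -0.0011 to 0.0327 for Cand1, -0.0531 to 0.12 for Nr4a3, -2.74 to 3.17 for Ttr and -0.0654 to 0.024 for mt-Co1. The causes were not tested.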
